A study of Homo sapiens with 11 samples.

Results

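The HOX genes of the 4 clusters were examined after depletion of Tat-SF1, the product of HTATSF1. The cells were T-REx-293, made from human embryonic kidney (HEK293) cells so that tetracycline turns on a chosen construct. Members were taken by name: every probe set annotated to exactly 1 gene symbol, with that symbol reading HOXA, HOXB, HOXC or HOXD and a number and nothing more. The rule gave 36 genes with 339 probe sets, of 19536 symbols with 355799 single-symbol probe sets and 1399022 probe sets in the table. There were 10 genes of HOXA, 10 of HOXB, 7 of HOXC and 9 of HOXD, and 323 of the 339 probe sets had an estimate on all 11 arrays. HOXC5 and HOXC6 occurred in probe sets shared with HOXC4 and in none of their own.

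All cells stably carried a plasmid encoding GFP and were induced with 2.5 µg/mL tetracycline for 72 h. The control group held 2 arrays of cells with an empty vector and 3 arrays of cells with an shRNA against GFP. The knockdown group held 3 arrays each for shRNA A and shRNA B, which both target Tat-SF1. The labels call the replicates biological, and 1 of 12 planned samples, an empty vector replicate, was left out by the submitters after quality control, so 11 Affymetrix exon arrays remained. The comparisons asked whether HOX transcripts differed between knockdown and control cells, between the shRNAs, and between the control constructs.

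HOX genes encode homeodomain transcription factors that set position along the body axis. Within each cluster the genes lie in the order in which they are used, from the low-numbered paralogs of the hindbrain and neck to the high-numbered paralogs of the trunk end, limbs and urogenital tract. Polycomb complexes keep unused stretches of a cluster silent, MLL complexes keep used stretches active, and retinoic acid signalling helps to open the low-numbered ends. HOXA11, HOXC11 and HOXD11 are known for their role in forming the metanephric kidney. HEK293 cells were made from embryonic kidney, and the cell type they came from was not analysed here.

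The values were log2 probe set signals as deposited. Array medians lay between 7.901 and 7.904, and many dim probe sets crowded near 7.91, the median of the table, so differences of features near that value are compressed. Some probe sets lay far below it and varied widely, such as 3042787 of HOXA3, from 0.39 in shRNA B replicate 2 to 6.54 in empty vector replicate 2. Pairs of arrays correlated at 0.946 to 0.968 over all single-symbol probe sets with an estimate on every array. HTATSF1 itself averaged 8.50 ± 0.12 (SD, n = 5) in control and 8.21 ± 0.057 (SD, n = 6) in knockdown cells, a difference of -0.30 (SE 0.051, limma adjusted p = 0.0483) with no overlap between the groups. Of the markers looked at, KRT18 (25 of 33 probe sets), KRT8 (23 of 27), VIM (18 of 24) and NEFL (15 of 19), which HEK293 cells are known to express, were above the detection level defined in the next paragraph. LIN28B (6 of 10) and SALL1 (6 of 11) were above it in part. Few probe sets were above it in PAX2 (2 of 23), EYA1 (3 of 31), WT1 (4 of 18) and SIX2 (2 of 6). PAX8, LHX1 and NEFM had 0 probe sets above it. The whole list of HEK293 and embryonic kidney markers had 39.7% of its probe sets above it. The marker lists of other cells had 3.25% (fibroblast), 0.559% (endothelial), 0.909% (hepatocyte), 0 (blood) and 13.2% (carcinoma, mostly EPCAM) of their probe sets above it. The mean of the 3000 brightest genes was 9.33 ± 0.041 in control and 9.26 ± 0.045 in knockdown arrays (two-sided exact permutation p = 0.0303), and 4 knockdown arrays but no control array carried a suffix in their names. The part of the brightness in the results was not tested. With the suffix as a block, 0 of 14520 genes passed in knockdown against control, so HTATSF1 did not pass either. Other values with this block are given for HOXA13 and in the last section.

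Which HOX genes gave signal was read from the share of a gene's probe sets at or above 8.37, the 90th percentile of the table, here called detected. Of the 323 HOX probe sets, 102 (31.6%) were detected, against 28.1% of all 347084 single-symbol probe sets with an estimate. By cluster, 31 of 99 HOXA probe sets (31.3%), 33 of 93 HOXB (35.5%), 16 of 48 HOXC (33.3%) and 22 of 83 HOXD (26.5%) were detected. The shares ranged more widely by position within a cluster. Among paralogs 1 to 3, 13 of 71 probe sets (18.3%) were detected, among paralogs 4 to 8, 24 of 109 (22.0%), and among paralogs 9 to 13, 65 of 143 (45.5%). Single paralog numbers departed from these bins. Paralog 6 had 7 of 13 probe sets detected and paralog 5 had 6 of 14, but paralog 12 had 2 of 13. These shares describe probe sets that bind with different strength, so they are not amounts of RNA, and no test was made on them.

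**Figure D1:**
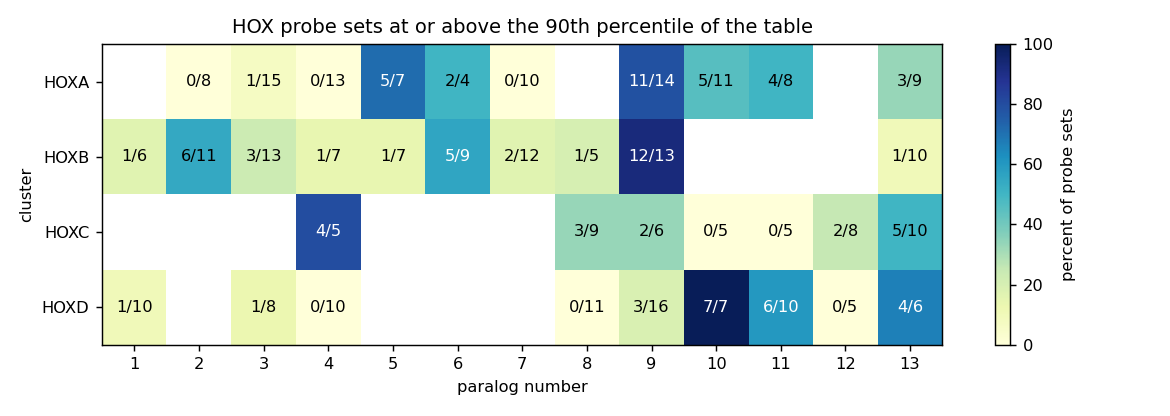
Detected probe sets of each HOX gene by cluster (vertical axis) and paralog number (horizontal axis), coloured by the percent of the gene's probe sets with an estimate whose mean over 11 arrays was at or above the 90th percentile of the table; each cell gives detected probe sets over probe sets, and blank cells hold no gene analysed here. Dark cells are most frequent at paralogs 9 to 13, with HOXD10 at 7 of 7 and HOXB9 at 12 of 13. HOXC4 (4 of 5) and HOXA5 (5 of 7) are dark as well.

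At least 50% of the probe sets were detected for 12 of the 36 genes, some but fewer for 16, and none for 8. In HOXA the 12 included HOXA5 (5 of 7 probe sets), HOXA6 (2 of 4), HOXA9 (11 of 14) and HOXA11 (4 of 8). HOXA5 is known for its role in lung formation, HOXA9 for its role in blood progenitors and HOXA11 in the kidney and forearm. HOXA2, HOXA4 and HOXA7 had 0 detected probe sets of 8, 13 and 10, so genes without a detected probe set stood on both sides of HOXA5 and HOXA6. HOXA10 (5 of 11) and HOXA13 (3 of 9), which act in the reproductive tract and in the hand, foot and genital tubercle, were detected in part.

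In HOXB, HOXB2 (6 of 11), HOXB6 (5 of 9) and HOXB9 (12 of 13) were detected in at least 50%. HOXB2 patterns the hindbrain and HOXB9 the thoracic skeleton. The genes between them, HOXB3 (3 of 13), HOXB4 (1 of 7), HOXB5 (1 of 7), HOXB7 (2 of 12) and HOXB8 (1 of 5), gave few detected probe sets, and so did HOXB1 (1 of 6) and HOXB13 (1 of 10), the gene known from prostate. In HOXC, HOXC4 (4 of 5) and HOXC13 (5 of 10), a regulator of hair and nail keratins, lay at opposite ends of the cluster and were the genes detected in at least 50%. HOXC8 (3 of 9), HOXC9 (2 of 6) and HOXC12 (2 of 8) were detected in part, and HOXC10 and HOXC11 in 0 of 5 probe sets each.

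In HOXD the signal lay at the high-numbered end. HOXD10 was detected in 7 of 7 probe sets, HOXD11 in 6 of 10 and HOXD13 in 4 of 6, whereas HOXD12, which lies between HOXD11 and HOXD13, was detected in 0 of 5 and reached the table median in 1 of 5. HOXD9 was detected in 3 of 16, HOXD1 in 1 of 10, HOXD3 in 1 of 8, and HOXD4 and HOXD8 in 0 of 10 and 0 of 11. HOXD10 acts in the limb and in lumbar motor neurons, and HOXD13 in the digits. HOXD12 was singled out after its values were seen.

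The stretches before the starts of the HOXD genes at that end, and of HOXA13, whose probe sets are described further on, are shown because neighbouring genes differed in detection. They are the 250 bases upstream of the transcript start, written 5′ to 3′ on the gene's strand, from RefSeq (GRCh38.p14). Capitals mark every match to TATAAA, to CCAAT or to GGGCGG, or, for the other strand, to TTTATA or to ATTGG or to CCGCCC, with overlapping matches run together.
HOXD13, chr2:176092471-176092720, + strand: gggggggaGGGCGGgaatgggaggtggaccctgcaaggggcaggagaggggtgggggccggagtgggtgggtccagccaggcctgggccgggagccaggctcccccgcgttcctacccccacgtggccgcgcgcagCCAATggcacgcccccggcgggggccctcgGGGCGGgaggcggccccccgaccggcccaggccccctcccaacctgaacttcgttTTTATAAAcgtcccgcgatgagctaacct
HOXD12, chr2:176099545-176099794, + strand: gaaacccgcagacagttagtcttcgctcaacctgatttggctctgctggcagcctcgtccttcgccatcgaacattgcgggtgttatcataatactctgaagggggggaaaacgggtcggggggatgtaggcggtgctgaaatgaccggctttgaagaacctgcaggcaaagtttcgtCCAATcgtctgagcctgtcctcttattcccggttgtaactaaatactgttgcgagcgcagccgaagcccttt
HOXD11, chr2:176107030-176107279, + strand: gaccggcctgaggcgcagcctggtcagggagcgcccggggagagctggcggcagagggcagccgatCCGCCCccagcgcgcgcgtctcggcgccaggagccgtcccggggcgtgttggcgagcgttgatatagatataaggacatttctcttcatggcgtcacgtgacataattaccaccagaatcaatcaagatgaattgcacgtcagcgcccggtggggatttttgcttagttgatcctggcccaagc
HOXD10, chr2:176116528-176116777, + strand: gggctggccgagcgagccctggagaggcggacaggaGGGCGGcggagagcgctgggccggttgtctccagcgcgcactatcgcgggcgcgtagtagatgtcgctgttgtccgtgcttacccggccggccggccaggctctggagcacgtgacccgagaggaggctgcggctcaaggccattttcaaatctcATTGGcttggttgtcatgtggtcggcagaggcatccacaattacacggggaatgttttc
HOXA13, chr7:27200092-27200341, - strand: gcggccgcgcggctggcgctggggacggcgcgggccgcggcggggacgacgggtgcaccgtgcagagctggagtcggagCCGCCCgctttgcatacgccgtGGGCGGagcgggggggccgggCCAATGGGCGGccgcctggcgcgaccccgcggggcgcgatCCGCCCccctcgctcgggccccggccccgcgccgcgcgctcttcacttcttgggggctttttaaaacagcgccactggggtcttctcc
HOXD13 held TATAAA on both strands in overlapping positions close to the start, 1 CCAAT and 2 GGGCGG matches. HOXD12 held 1 CCAAT match and neither of the other motifs, HOXD11 held 1 GGGCGG match, and HOXD10 held 1 of each of CCAAT and GGGCGG. HOXA13 held 4 GGGCGG matches, 1 of them adjoining its CCAAT match, and 40 CpG dinucleotides, where the median of all promoters was 11 and 97.8% had fewer. The CpG count was 21 in HOXD13, 16 in HOXD12, 23 in HOXD11 and 23 in HOXD10. In other genes, HOXD8 (28 CpG), HOXA7 (28) and HOXA4 (26) had no detected probe set, and HOXC4 (14) had 4 of 5.

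Promoters were listed for 19 of the 36 HOX genes, 26 stretches in all because some genes have several starts. A TATAAA match was present in 5 of 26 (19.2%) against 10.7% of all 35116 promoters of that length, a CCAAT match in 17 (65.4%) against 32%, and a GGGCGG match in 13 (50%) against 42.6%. Several HOXA3 and HOXA10 starts share a gene, so the 26 are not independent, and a match is a description of the letters and not a bound site.

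The probe sets of single genes often disagreed. In 10 genes the brightest probe set was over 1 log2 unit above the next. In HOXB3, a hindbrain gene, 1 probe set averaged 13.54 and the next 8.44. The same held for HOXC12 (13.83 and 10.36), HOXD9 (12.28 and 8.77) and HOXA10 (11.63 and 9.47). In HOXB3 and HOXD9 the other probe sets lay near or below the detection level, whereas HOXA10 and HOXA5, also among the 10, had 5 detected probe sets each.

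**Figure D2:**
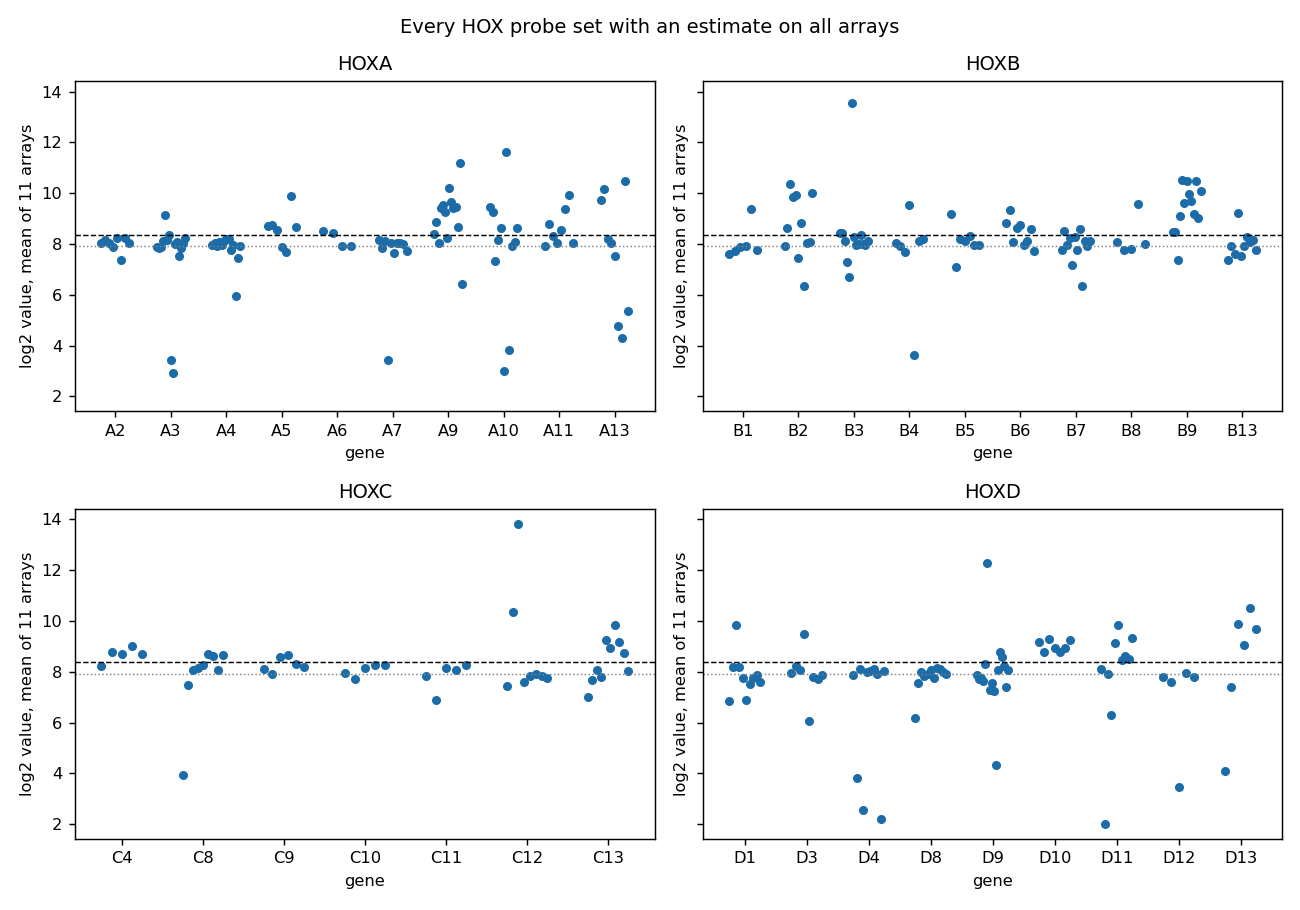
Every HOX probe set with an estimate on all arrays, by gene and cluster; the vertical axis is its log2 value averaged over 11 arrays, the dashed line the 90th percentile (8.37) and the dotted line the median (7.91) of the table. Single bright probe sets stand far above the others in HOXB3, HOXC12, HOXD9 and HOXA10, while HOXB9 and HOXD10 have nearly all probe sets above the dashed line.

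The set of detected probe sets changed little from array to array. Between 96 and 109 of the 323 were at or above the detection level on an array, 85 on all 11 arrays, 191 on none and 47 on some. The count averaged 105.2 ± 1.92 (SD, n = 5) in control and 103.7 ± 5.09 (SD, n = 6) in knockdown arrays (two-sided exact permutation p = 0.578). The lowest and the highest counts were both in knockdown arrays, shRNA B replicate 3 with 96 and shRNA A replicate 3 and shRNA B replicate 2 with 109 each.

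For the comparisons a gene was summarised by the median of its probe sets with a mean at or above the table median, where it had at least 4 of them. That left 30 of the 36 HOX genes among 14520 genes; HOXB1, HOXB8, HOXC11, HOXC12, HOXD1 and HOXD12 were not tested. Between knockdown and control, 0 of the 30 HOX genes passed an adjusted p of 0.05 in limma, where 0.227% of all tested genes passed. At an unadjusted p under 0.05 the count was also 0, against 15.2% of all genes. No HOX gene had groups that did not overlap, against 2.23% of all genes.

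The differences were small in all 30 genes, from -0.16 to 0.058 on the log2 scale, and 26 were under 0.1 in size. The mean was lower in knockdown in 20 of 30 (66.7%), against 67.2% of all genes, and the median difference was -0.015 against -0.017 for all genes. With the arrays quantile normalised, 12 of 30 were lower, the HOX median was 0.014 and that of all genes -0.00012, so the direction of the HOX genes as a group depended on the scaling. By cluster the mean was lower in knockdown in 6 of 10 HOXA, 7 of 8 HOXB, 3 of 5 HOXC and 4 of 7 HOXD genes, with medians of -0.0022, -0.030, -0.012 and -0.0040. The median value of the tested HOX genes was 8.29 ± 0.027 (SD, n = 5) in control and 8.27 ± 0.028 (SD, n = 6) in knockdown arrays (two-sided exact permutation p = 0.268; 462 splits).

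**Figure D3:**
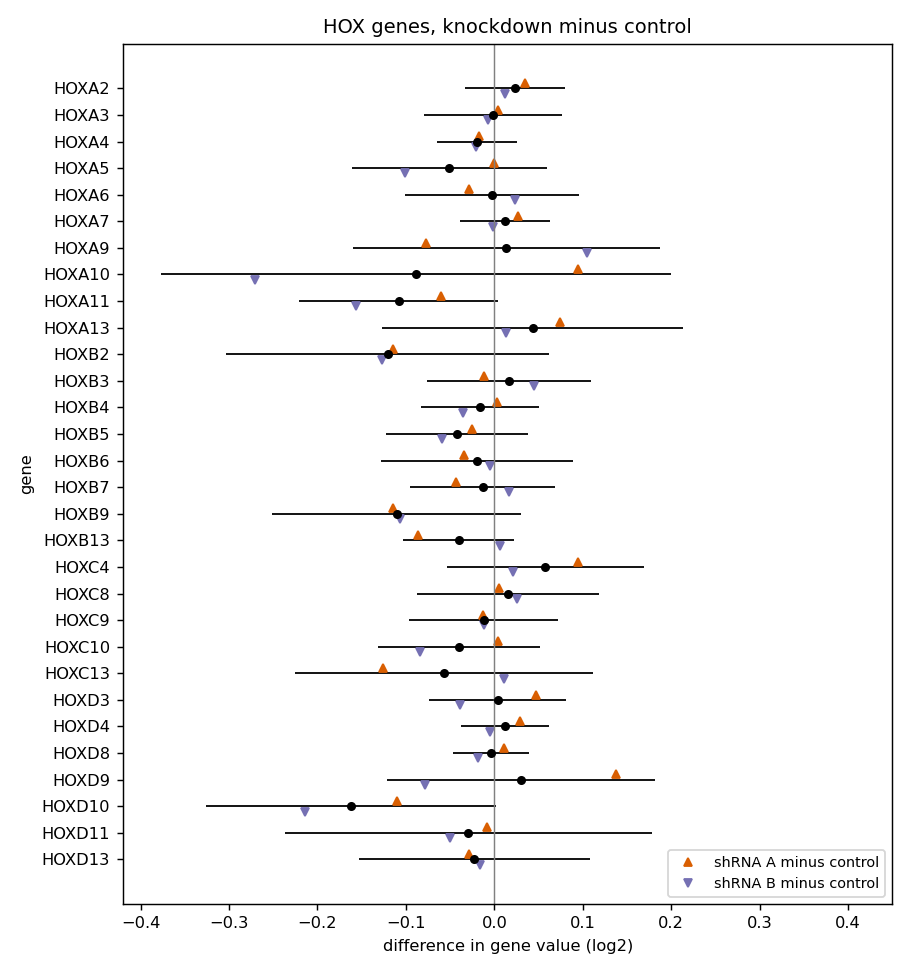
Difference in gene value (log2, horizontal axis) of the 30 tested HOX genes (vertical axis): circles are knockdown minus control with 95% confidence intervals from limma, upward triangles shRNA A minus control and downward triangles shRNA B minus control. Every interval crosses 0, and HOXD10 and HOXA11 come closest to excluding it.

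HOXD10 had the smallest p among the HOX genes. Its values were 8.95 and 9.35 with the empty vector and 9.03, 9.19 and 9.04 with GFP shRNA, and 8.92, 9.01 and 9.07 with shRNA A and 8.78, 9.09 and 8.83 with shRNA B. All 6 knockdown arrays lay below the control mean, but the groups overlapped and the highest value was a single empty vector array. The means were 9.11 ± 0.16 (SD, n = 5) in control and 8.95 ± 0.13 (SD, n = 6) in knockdown, a difference of -0.16 (SE 0.077, 95% interval -0.33 to 0.0014, limma adjusted p = 0.332, two-sided exact permutation p = 0.106). Without empty vector replicate 2 the difference was -0.10 (limma adjusted p = 0.474), a change of more than 1.5 times that rested on that array. With the array median subtracted before taking logs, which stretches dim values, it was -0.28 (SE 0.13, limma adjusted p = 0.323).

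HOXA11 averaged 8.49 ± 0.061 (SD, n = 5) in control and 8.39 ± 0.11 (SD, n = 6) in knockdown. It read 8.57 and 8.40 with the empty vector, 8.49, 8.51 and 8.51 with GFP shRNA, 8.55, 8.29 and 8.46 with shRNA A, and 8.27, 8.40 and 8.35 with shRNA B. The GFP shRNA arrays lay close together, and the shRNA A arrays spread wider than the whole control group. The difference was -0.11 (SE 0.053, 95% interval -0.22 to 0.0046, limma adjusted p = 0.350). HOXB9, the gene with the largest detected share in HOXB, read 9.63 and 9.67 with the empty vector, 9.89, 9.56 and 9.74 with GFP shRNA, 9.47, 9.61 and 9.67 with shRNA A, and 9.53, 9.60 and 9.64 with shRNA B. All 6 knockdown arrays were below the control mean of 9.70 ± 0.13 (SD, n = 5), and the lower control arrays lay inside the knockdown range. Its difference was -0.11 (SE 0.067, limma adjusted p = 0.452).

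HOXB2 read 8.78 and 9.20 with the empty vector, 8.74, 9.16 and 8.92 with GFP shRNA, 8.64, 9.01 and 8.88 with shRNA A and 8.84, 8.89 and 8.76 with shRNA B. The control arrays alone spanned nearly the whole range, and the difference of -0.12 (SE 0.086, limma adjusted p = 0.540) was smaller than the control SD of 0.21. HOXA5 read 8.80 and 8.77 with the empty vector, 8.72, 8.78 and 8.70 with GFP shRNA, 8.74, 8.66 and 8.85 with shRNA A and 8.58, 8.75 and 8.63 with shRNA B. Its lowest and its highest array were both knockdown arrays, and the difference was -0.051 (SE 0.052, limma adjusted p = 0.688).

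The other 2 HOXB genes among the 8 smallest p-values, HOXB5 and HOXB13, lay near the dim end, with 1 detected probe set each. HOXB5, a gene of the neck and lung, read 8.12 and 8.29 with the empty vector, 8.10, 8.19 and 8.21 with GFP shRNA, 8.17, 8.17 and 8.13 with shRNA A, and 8.13, 8.19 and 8.05 with shRNA B. Its difference was -0.042 (SE 0.038, limma adjusted p = 0.638), and 5 of the 6 knockdown arrays lay inside the range of the GFP shRNA arrays. HOXB13 averaged 8.12 ± 0.039 (SD, n = 5) in control and 8.08 ± 0.057 (SD, n = 6) in knockdown, a difference of -0.040 (SE 0.030, limma adjusted p = 0.551).

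HOXC4 and HOXA9 had higher means in knockdown and neither passed. HOXC4, a neck-level gene, read 8.62 and 8.74 with the empty vector, 8.73, 8.56 and 8.79 with GFP shRNA, 8.74, 8.88 and 8.73 with shRNA A, and 8.71, 8.73 and 8.68 with shRNA B. A single shRNA A array stood highest, and the other knockdown arrays lay within the control range. It averaged 8.69 ± 0.094 (SD, n = 5) in control and 8.74 ± 0.068 (SD, n = 6) in knockdown, a difference of 0.058 (SE 0.053, limma adjusted p = 0.649). HOXA9 read 9.30 and 9.25 with the empty vector, 9.11, 9.41 and 9.57 with GFP shRNA, 9.21, 9.27 and 9.27 with shRNA A, and 9.40, 9.57 and 9.32 with shRNA B. Its lowest array and 1 of its highest were both GFP shRNA arrays, and the difference was 0.014 (SE 0.082). The 10 probe sets shared by HOXC6 and HOXC4 had 5 detected and a median difference of 0.0070; the 5 shared by HOXC5 and HOXC4 and the 2 shared by all had none detected.

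**Figure D4:**
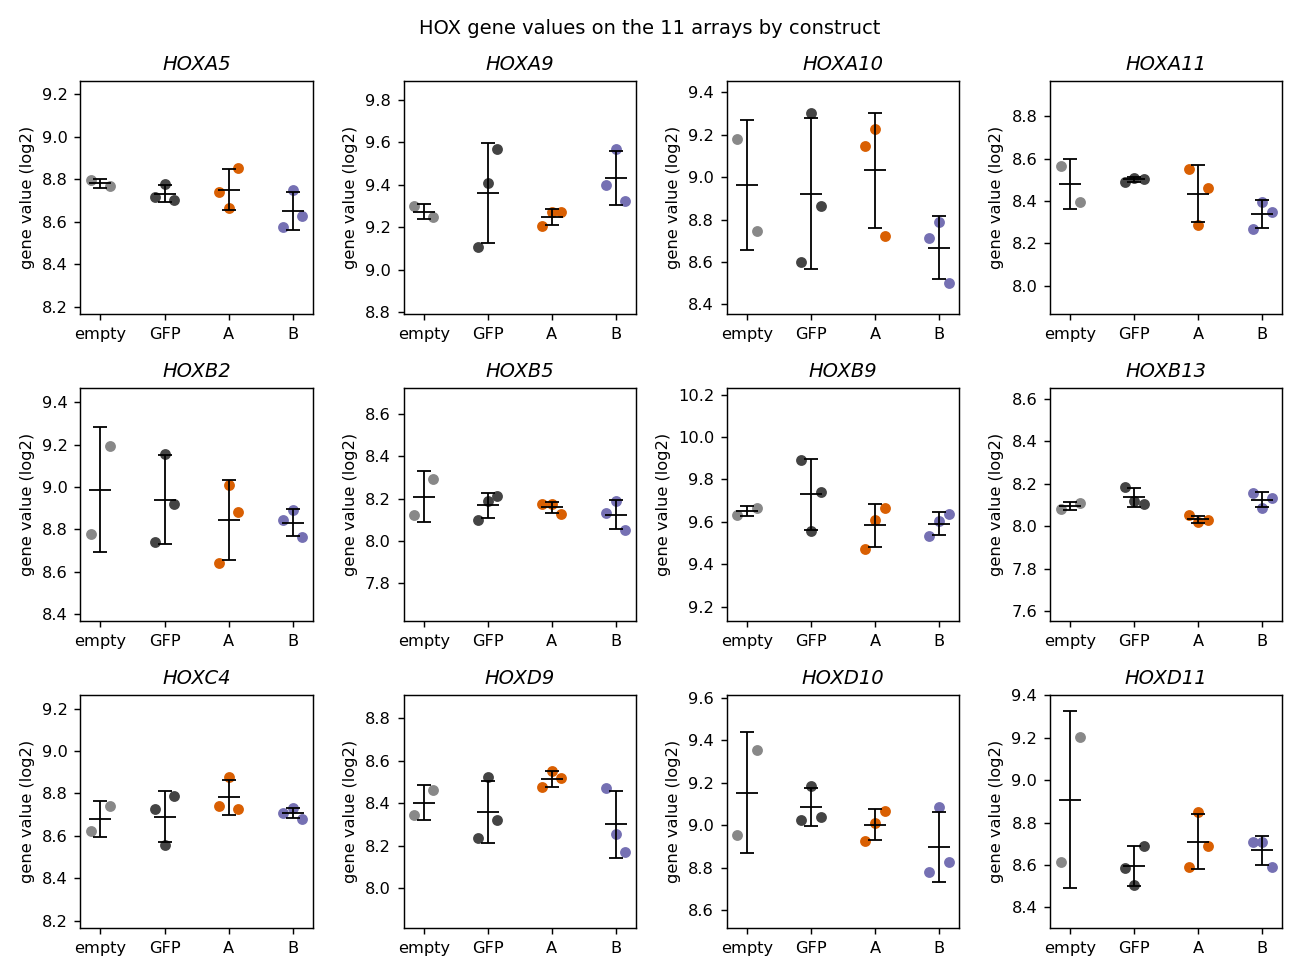
Gene values (log2, vertical axis) of 12 HOX genes on the 11 arrays by construct; points are arrays, horizontal marks construct means and bars ± SD, and every panel spans the same height. The knockdown and control arrays overlap in each gene, the shRNA A arrays of HOXB13 lie below its other arrays, and the points of HOXA10, HOXB2 and HOXD11 scatter most within a construct.

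The within-construct SD had a median of 0.081 over the 30 HOX genes and 0.061 over all genes. It ran from 0.032 in HOXB13 to 0.28 in HOXA10. HOXA10 read from 8.50 to 9.30, and neither end was shared by another array of the same construct. On several arrays, GFP shRNA replicate 2 with 9.30 among them, its value was that of a single probe set, 3042961. That probe set ran from 7.49 to 9.34 over the arrays, whereas 3042972 of the same gene ran from 8.48 to 8.86. HOXA10, HOXD9 and HOXD11 are described from here on after their values were seen.

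The 2 shRNAs were set against the shared control arrays and against each other. With shRNA A, 0 of 30 HOX genes passed an adjusted p of 0.05 in limma (0.00689% of all genes passed) and 1 an unadjusted p of 0.05, against 10.8% of all genes. With shRNA B, 0 passed (0.062% of all genes) and 2 passed unadjusted, against 13.3%. Between shRNA B and shRNA A directly, 0 passed (0% of all genes) and 3 passed unadjusted, against 4.41%. These 3 were HOXB13, at 0.093 higher with shRNA B (SE 0.034), HOXD9, at -0.22 (SE 0.082), and HOXA10, at -0.37 (SE 0.16), each with a limma adjusted p of 0.999.

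In HOXD9 the 3 shRNA A arrays read 8.47, 8.55 and 8.52 and the 3 shRNA B arrays 8.47, 8.25 and 8.17, with the control arrays between 8.24 and 8.52. In HOXA10 shRNA A read 9.15, 9.23 and 8.72 and shRNA B 8.71, 8.79 and 8.50, while the control arrays spread from 8.60 to 9.30. Of these knockdown values, 9.23, 8.72, 8.71 and 8.79 were those of probe set 3042961. In both genes 1 array lay at the values of the other shRNA, and the control range covered 4 of the 6 knockdown arrays in HOXD9 and 5 of 6 in HOXA10. In HOXB13 the shRNA A arrays, 8.05, 8.02 and 8.03, lay below every other array, and the shRNA B arrays, 8.16, 8.09 and 8.13, lay among the controls, 8.08 to 8.19.

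Between GFP shRNA and the empty vector, 0 of 30 HOX genes passed in limma (0.00689% of all genes) and 1 passed unadjusted, against 4.48%. That gene was HOXD11, at -0.31 (SE 0.13, limma adjusted p = 0.945), where empty vector replicate 2 read 9.20 and the other 4 control arrays 8.50 to 8.69. Over all 4 constructs together, 0 passed the limma F test (0.0275% of all genes) and 1, HOXB13, passed unadjusted, against 9.75%.

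Single probe sets were tested as well, 347084 in all. Of the 323 HOX probe sets 0 passed an adjusted p of 0.05 in limma, against 0.0115% of all, and 38 (11.8%) an unadjusted p of 0.05, against 10.9%. The groups did not overlap in 3 of 323 (0.929%), against 1.44% of all. These were 1 probe set each of HOXA2, at -0.17, HOXA13, at -0.67, and HOXC12, at -0.095.

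The smallest adjusted p belonged to HOXA13 probe set 3043004. It read 8.26 and 8.26 with the empty vector, 8.63, 8.40 and 8.39 with GFP shRNA, 7.95, 7.60 and 7.74 with shRNA A and 7.86, 7.45 and 7.73 with shRNA B. Every control array was above every knockdown array, at -0.62 (SE 0.12) for shRNA A and -0.71 (SE 0.12) for shRNA B, with -0.087 (SE 0.13) between the shRNAs. The means were 8.39 ± 0.15 (SD, n = 5) and 7.72 ± 0.18 (SD, n = 6), a difference of -0.67 (SE 0.094), with a limma adjusted p of 0.0643 and a two-sided exact permutation p of 0.0022, the smallest that 462 splits can give. Of the 6 knockdown values 5 lay below the median of the table (7.91), where dim probe sets crowd, and the sixth at 7.95, so no fold is given.

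Of the other HOXA13 probe sets, the neighbours 3043003 and 3043002 had lower knockdown means, at -0.35 (SE 0.11, limma adjusted p = 0.248) and -0.24 (SE 0.083, limma adjusted p = 0.320), with groups that overlapped. Probe sets 3043001 and 3043009, among the brightest, differed by 0.043 (SE 0.081) and -0.053 (SE 0.11). The gene value of HOXA13, the median of 5 probe sets, coincided with 3043001, at 9.69 ± 0.11 (SD, n = 5) in control and 9.74 ± 0.16 (SD, n = 6) in knockdown, so the shift in 3043004 did not show in it. HOXA13 therefore has probe sets that differ in what they show, and where on the transcript each lies was not analysed here.

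**Figure D5:**
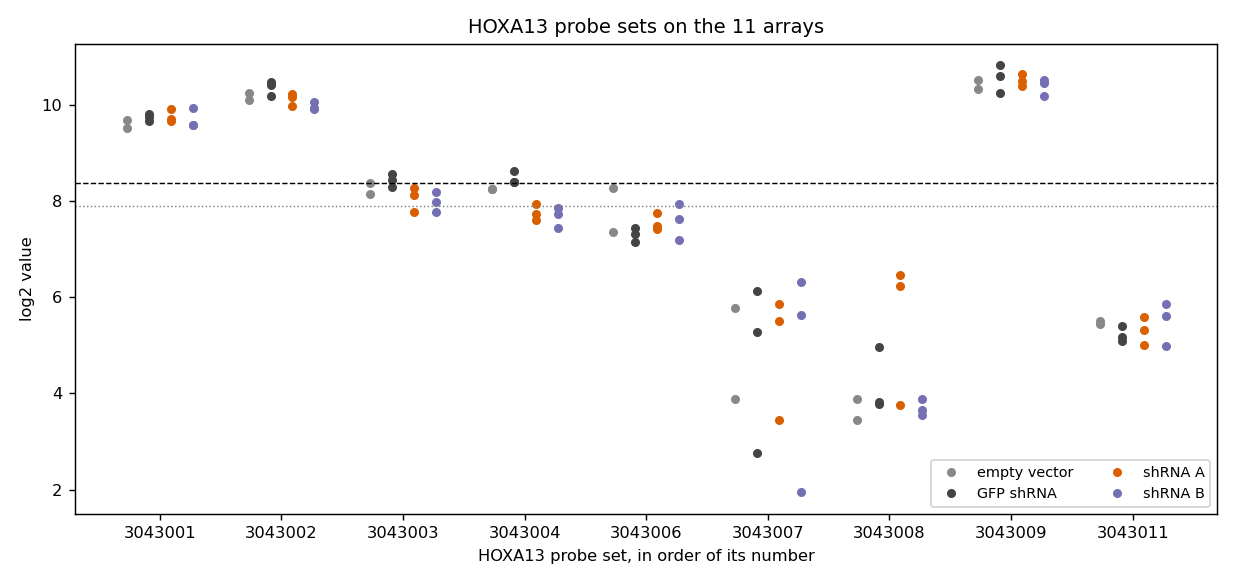
Log2 values (vertical axis) of the 9 HOXA13 probe sets with an estimate on all arrays, in order of probe set number (horizontal axis); points are arrays coloured by construct, the dashed line is the 90th percentile (8.37) and the dotted line the median (7.91) of the table. In 3043004 all 5 control arrays lie above all 6 knockdown arrays, while 3043001 and 3043009 lie level.

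How HOXA13 was summarised decided its call. With no floor on dim probe sets the median of its 9 probe sets averaged 8.36 in control and 7.73 in knockdown. The difference was -0.63 and the limma adjusted p was 0.0365. On several arrays of both groups that median was the value of 3043004 itself, as in empty vector replicate 1 (8.26) and shRNA B replicate 3 (7.73). This pass is therefore not separate from the shift in 3043004. With the mean of its 5 probe sets over the floor, the difference was -0.25 (limma adjusted p = 0.0355). That mean takes in 3043004, which cleared the floor only through the control arrays, so the pass supports nothing. Without a floor and without 3043004, an alternative added after the data were seen, the difference was -0.14 (limma adjusted p = 0.599). With probe sets below the table median left out before testing, 3043004 passed at a limma adjusted p of 0.0449, but its overall mean (8.03) cleared that floor only through the control arrays, so this pass supports nothing. Blocking on the suffix in the array names, its difference was -0.61 and its limma adjusted p was 0.369. In the 7 arrays without the suffix, another alternative added after the data were seen, the limma adjusted p was 0.478. The difference there is the same by construction, because no control array carries the suffix. Both estimates compare shRNA A replicates 1 and 2 with the controls and hold nothing of shRNA B. Leaving out each array in turn gave -0.61 to -0.71.

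The genes that act with or on the HOX clusters were described from lists in the same comparison of knockdown with control. None of the genes of these 7 lists passed an adjusted p of 0.05 in limma, and the counts at an unadjusted p under 0.05 stand beside 15.2% of all genes. Of the genes at the cluster ends, 10 were tested, 10 had lower means in knockdown and 2 passed unadjusted, with a median of -0.052 against -0.017 for all genes. MTX2, beside HOXD, and HIBADH, beyond HOXA13, were each at -0.11 (limma adjusted p = 0.189 and 0.255). Of the TALE homeodomain partners, which bind DNA with HOX proteins, 10 were tested, 8 were lower and 2 passed unadjusted, with a median of -0.028, and PBX2 was at -0.15 (SE 0.052, limma adjusted p = 0.191).

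Among the Polycomb genes 27 were tested, 21 were lower and 7 passed unadjusted (15.2% of all genes did), with a median of -0.044. KDM2B, which recruits a Polycomb complex to CpG islands, read 8.36 ± 0.075 (SD, n = 5) and 8.21 ± 0.039 (SD, n = 6), a difference of -0.15 (SE 0.040, limma adjusted p = 0.0991), and PCGF2 and CBX8, subunits of such complexes, were at -0.16 and -0.13. Among the MLL and trithorax genes 19 were tested, 11 were lower and 1 passed unadjusted, MLLT1, at -0.13 (SE 0.051), with a median of -0.016.

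Among the retinoic acid genes 12 were tested, 8 were lower and 7 passed unadjusted (15.2% of all genes did), with a median of -0.051. The 7 all had lower means in knockdown. The list was dim, with 17.4% of its probe sets detected against 28.1% of all single-symbol probe sets. DHRS3, which turns retinaldehyde back to retinol, was at -0.17 (SE 0.046, limma adjusted p = 0.111). Of the CDX, ParaHox and CTCF genes 9 were tested, 7 were lower and 1 passed unadjusted, the cohesin subunit RAD21, at -0.12 (SE 0.054), with a median of -0.046. Of geminin and HOX protein partners 7 were tested, 5 were lower and 2 passed unadjusted, SMAD1 at -0.093 and the acetyltransferase EP300 at 0.14, with a median of -0.036. The share of lower means in these lists is to be read beside the 67.2% over all genes, and the lists were not recomputed with quantile normalization, under which the median of all genes was -0.00012.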

How the data were processed

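Total RNA of the 11 samples was measured on Affymetrix exon arrays, 1 sample per array, per the labels. The values are log2 per probe set and array, as the authors deposited them; software, background correction and normalization were not given in the sources used here. A probe set with a placeholder (a value that is practically 0) on any array was left out of the fits. Probe sets were named through the platform annotation, with 2876 of the symbols updated through RefSeq synonyms, 16450 already current and 210 kept, and 15195 probe sets with several symbols were left out. A gene's value was the median of its probe sets with a mean at or above the table median (7.91), for at least 4 of them. Groups were compared with limma 3.58.1 in R 4.3.3 (lmFit, eBayes with a trend), with Benjamini-Hochberg adjustment over all genes or probe sets and a threshold of 0.05, after the script was tested on simulated data. All constructs entered the fits between constructs, while knockdown against control was fitted with 2 groups. Single values were compared with two-sided exact permutation tests over the 462 splits of 5 against 6 arrays, which cannot give a p under 0.0022. The number of arrays, not a depth, limits the precision.

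The HOX members, the gene lists and the markers were chosen with earlier results of these data known. Named with values on every array were the 8 HOX genes of smallest unadjusted p in knockdown against control and the tested gene with the largest detected share in each cluster; of each list up to 3 genes of smallest p were named. Alternatives were the floor, the summary of a gene, quantile normalization, eBayes without a trend, the array-name suffix and the replicate number as blocks, GFP shRNA alone as the control, background subtraction and leaving out each array. Protein sequences were not used here.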

Additional observations from a re-analysis of the deposited data

Results flagged for a closer look

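In 6 of the 60 groups looked at (30 HOX genes, each in control and in knockdown arrays), 1 array stood apart from the others of its group by Dixon's criterion, which chance meets in about 1 in 20 groups. Of these, 2 were in empty vector replicate 2, where HOXD11 read 9.20 against 8.50 to 8.69 in the other control arrays and HOXD3 read 8.25 against 8.11 to 8.14. A further 2 were in shRNA A replicate 2, where HOXC4 read 8.88 against 8.68 to 8.74 in the other knockdown arrays and HOXA6 read 8.06 against 8.21 to 8.24. The remaining 2 were HOXA3 in GFP shRNA replicate 3, at 8.29 against 8.11 to 8.15, and HOXC10 in shRNA B replicate 1, at 8.01 against 8.16 to 8.21. In HOXD11, HOXC4 and HOXA3 the array was the highest of all 11, and in HOXA6 and HOXC10 the lowest.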

How the results depend on the processing

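The count of HOX genes past the threshold was 0 in all 6 comparisons and stayed 0 under every alternative run except 3, each in knockdown against control: 1 gene, HOXA13, passed with no floor on dim probe sets (at 4 or at 2 probe sets a gene, -0.63 in both) and when its probe sets were averaged (-0.25), where its sign turned from 0.043. Of the HOX probe sets, 1 (3043004 of HOXA13) passed with the floor at the table median, which it cleared only through its control arrays, and 0 otherwise. The averaged value of HOXA13 took in the same probe set, so neither of these passes supports a change. With no floor, the median of HOXA13 was on several arrays the value of 3043004 itself, so those passes are not separate from it either. The HOX median of -0.015 became 0.014 with quantile normalization, and without a floor and with the other settings it lay between -0.040 and -0.0012. The count over all genes, 33, moved to 19 with no floor, 130 under a higher floor, 140 with averaged probe sets, 6 with quantile normalization, 86 without a trend, 2 with GFP shRNA alone as the control and 0 with the suffix as a block (1279 at an unadjusted p under 0.05); leaving out 1 array gave 2 to 67, the highest without empty vector replicate 2. With the replicate number as a block 10 genes passed and 0 of them were HOX genes. Same-numbered arrays of different constructs did not deviate together (15 pairs, correlations -0.147 to 0.267, median 0.041; other pairs had a median of -0.021), so the numbers were not taken as a pairing. The cause of these shifts was not tested. All shRNA B arrays and 1 of the 3 shRNA A arrays carry the suffix. In the fit of knockdown against control, the block sets shRNA A replicates 1 and 2 against all other knockdown arrays. The difference is then that of these replicates from the controls. In fits with the shRNAs as separate groups, the block is estimated within shRNA A alone.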
